A study of Mus musculus with 22 samples.

Results

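The genes described here belong to the PIWI-interacting RNA (piRNA) pathway and were chosen by name: Piwil1, Piwil2, Mov10l1, Mael, Tdrd1, Tdrd6, Tdrd9, Ddx4, Asz1 and Pnldc1. Of these 10 genes, 9 were represented by 1 probe set each among the 15780 named genes of the array, and Tdrd6 was not analysed here. The rule itself used no measured value. Their levels were described across 3 sorted germ cell fractions and liver, and between trisomic and euploid males.

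In the male germ line, piRNAs are small RNAs bound by PIWI proteins that silence transposons and, in pachytene spermatocytes, are produced in large amounts from dedicated long precursor transcripts. An RNA helicase hands the precursor to a nuclease on the outer membrane of mitochondria, a PIWI protein binds the resulting fragment, and a trimming enzyme shortens its end before it is methylated. Tudor domain proteins bind methylated arginines of PIWI proteins and gather the factors in nuage, the cytoplasmic granules of germ cells. The transcription factor A-MYB, the product of Mybl1, is known to activate both the precursor transcripts and many protein genes of the pathway at the pachytene stage.

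The study measured RNA from 22 Affymetrix arrays of male mice, all labelled as 2 months of age. Males of genotype Ts43H, trisomic for the chromosome 17 region next to the centromere, were set against euploid siblings of genotype t121/D17. Within each genotype there were 3 arrays of pre-mid-pachytene spermatocytes, 2 arrays of mid-late-pachytene spermatocytes, 3 arrays of spermatids and 3 arrays of liver. The germ cells were separated by fluorescence activated sorting of a testicular cell suspension, and 20 to 30 ng of RNA went through 2 cycles of labelling. The labels explain neither the designation t121/D17 nor where the extra copy ends, and they do not tie each array to an animal of its own, so the p-values measure the spread between arrays, which may be technical. All values below are deposited log2 intensities per probe set. Levels of different genes are not compared, because each probe set has its own brightness. In sorted bulk samples, fewer cells of a type and less RNA per cell cannot be told apart.

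Array medians lay between 4.104 and 4.694, and arrays of 1 group correlated at 0.988 to 0.997 over genes. The number of arrays per group limits the precision of every value. Values below 3 were treated as the background range, since the lower quartile of each array fell between 2.35 and 2.46. The labels were checked against marker lists. In liver all 8 hepatocyte markers on the array were high, with the albumin gene Alb at 16.58 ± 0.06 in euploid liver (SD, n = 3), and in every germ cell group 7 or 8 of these 8 markers averaged below 3. The early meiotic gene Dmc1 stood at 10.27 ± 0.27 in euploid pre-mid-pachytene cells (SD, n = 3) and at 3.03 ± 0.02 in mid-late-pachytene cells (SD, n = 2). Its whole list of 8 fell less, with a mean median of 12.15 in euploid pre-mid pachytene, 9.44 in mid-late pachytene and 8.49 in spermatids. The 10 pachytene markers gave 11.93, 14.67 and 14.25 in the same order. Their summed level was 18.10 in mid-late pachytene and 18.11 in spermatids. The round spermatid gene Acrv1 stood at 13.48 ± 0.31 in euploid spermatids (SD, n = 3). Its list of 9 had a mean median of 13.69 there, beside 10.11 in pre-mid and 10.04 in mid-late pachytene, so these transcripts were also present in the pachytene fractions. The fractions labelled pre-mid-pachytene also carried transcripts of elongating spermatids. The protamine gene Prm1 stood at 15.95 ± 0.13 there, beside 16.13 ± 0.13 in spermatids (SD, n = 3 each) and 12.96 ± 0.72 in mid-late-pachytene cells (SD, n = 2). All differences between stages below therefore describe fractions as labelled, and the part of such admixture in them was not tested. Of the somatic lists, at least 4 of 6 endothelial markers averaged below 3 in every germ cell group. The Sertoli cell list had 3 of 9 below 3 in euploid pre-mid-pachytene cells (Fshr, Dhh and Gata4) and a mean summed level of 13.68 there, beside 9.64 in mid-late-pachytene cells. The macrophage list had a mean summed level of 14.80 in euploid spermatids, beside 9.58 in euploid liver, with 1 gene, Aif1, at 14.79 and 4 of 7 (Cd68, Csf1r, Lyz2 and C1qa) below 3. The part of these transcripts in the results was not tested.

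The upstream sequences of 3 members are shown because these members differed most between the first pair of stages described below. Piwil1 and Tdrd1 were higher in mid-late than in pre-mid-pachytene cells, and Mov10l1 was lower. The sequences are the 250 bases before the transcript start in the gene's own direction, from RefSeq on build GRCm38.p6. Piwil1 lies on the plus strand at chr5:128735996-128736245, Mov10l1 on the plus strand at chr15:88982744-88982993, and the first of 3 starts of Tdrd1 on the plus strand at chr19:56825959-56826208. Capitals mark MYB hexamers, searched on both strands with the letters TAACTG or CAACTG, which end in CTG, and with the letters TAACGG or CAACGG, which end in CGG.
Piwil1: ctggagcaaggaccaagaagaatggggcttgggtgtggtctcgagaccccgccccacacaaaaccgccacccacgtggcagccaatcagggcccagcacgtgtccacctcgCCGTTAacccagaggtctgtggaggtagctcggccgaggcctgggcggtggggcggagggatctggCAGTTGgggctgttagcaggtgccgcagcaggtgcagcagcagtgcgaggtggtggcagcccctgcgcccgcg
Mov10l1: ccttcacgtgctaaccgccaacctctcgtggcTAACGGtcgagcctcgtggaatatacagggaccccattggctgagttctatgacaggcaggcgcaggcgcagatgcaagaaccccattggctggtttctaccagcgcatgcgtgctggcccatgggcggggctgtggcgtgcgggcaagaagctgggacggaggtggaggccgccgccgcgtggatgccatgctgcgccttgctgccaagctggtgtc
Tdrd1: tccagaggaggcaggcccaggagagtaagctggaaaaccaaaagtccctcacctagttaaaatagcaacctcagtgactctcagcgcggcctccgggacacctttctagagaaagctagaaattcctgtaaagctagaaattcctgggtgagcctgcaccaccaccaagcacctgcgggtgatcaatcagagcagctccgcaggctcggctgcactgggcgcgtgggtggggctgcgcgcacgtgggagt

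RefSeq promoters were given for 7 of the 9 members, and those of Piwil2 and Pnldc1 were not used here. A MYB hexamer occurred in the promoters of 2 of these 7 genes, counting 250 bases before and 50 after the start. Counted in the same way, over any start of a gene, 31.1% of 27025 genes held one, so 2 of 7 lies near the background. Piwil1 held a pair of them on the minus strand, CAACTG at 73 to 68 bases and TAACGG at 139 to 134 bases before the start. Mov10l1 held TAACGG on the plus strand at 218 to 213 bases before the start. The Tdrd1 window printed above held none of these letters. The short form TGACG of the cyclic AMP response element, also searched on both strands, occurred in 2 of 7 members, Ddx4 and the third start of Tdrd1, against 23.0% of genes, and its palindrome TGACGTCA in 0 of 7, against 2.03%. The palindrome contains the short form. These matches describe letters in a window, not binding.

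All 9 members were germ cell transcripts in these data. On the 6 liver arrays Piwil1, Piwil2, Mov10l1, Mael, Tdrd1 and Tdrd9 stayed between 1.72 and 2.82, and Ddx4 ran from 2.36 to 3.05. The lowest of the 16 germ cell arrays exceeded the highest liver array for every member. The gap was narrowest for Tdrd1, whose lowest germ cell value was 2.86 on a euploid pre-mid-pachytene array and whose highest liver value was 2.63. Asz1 and Pnldc1 were more scattered in liver, from 1.62 to 3.52 and from 2.35 to 4.096. The members passed the filter on low values in comparisons with liver only through the germ cells, so their calls support nothing. In euploid males 8 of 8 members tested were higher in pre-mid pachytene than in liver, 9 of 9 in mid-late pachytene and 9 of 9 in spermatids, where 46.7%, 46.9% and 47.2% of all genes tested were higher.

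**Figure D1:**
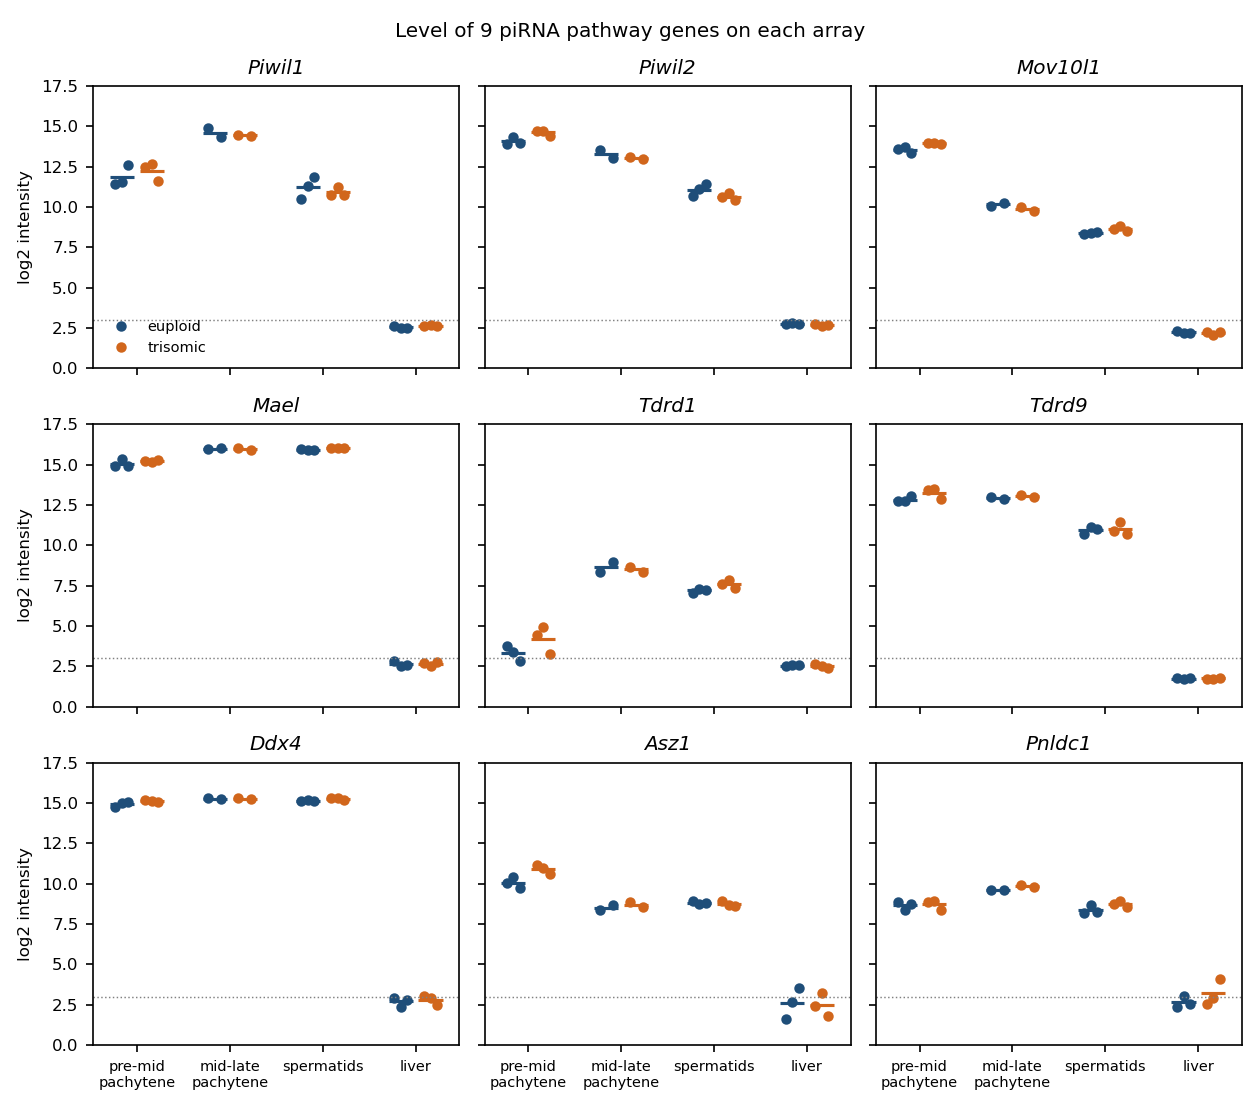
Log2 intensity (vertical axis) of each of the 9 genes on every array, by cell type, with euploid arrays in blue and trisomic arrays in orange. Points are arrays, horizontal bars are group means and the dotted line marks the background range below 3. Every germ cell array lies above every liver array in each panel, and Tdrd1 lies near the dotted line in pre-mid-pachytene cells.

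The first question was how the genes change from pre-mid-pachytene to mid-late-pachytene spermatocytes and on to spermatids in euploid males. From pre-mid to mid-late pachytene, Piwil1, Mael and Pnldc1 were higher and Piwil2, Mov10l1 and Asz1 were lower, at an adjusted p under 0.05. Tdrd1 was higher as well, but it passed the filter only through its mid-late values, so it is described apart and left out of the counts of comparisons with pre-mid pachytene. Tdrd9 and Ddx4 did not pass. Of the other 8 members, 3 were higher and 3 were lower, while over all 8626 genes tested 42.3% were higher and 36.3% lower, so these counts are no result about the members. From mid-late pachytene to spermatids 6 of 9 members were lower and 0 were higher, against 34.8% lower and 29.7% higher over 8395 genes. From pre-mid pachytene straight to spermatids, again without Tdrd1, 1 of 8 was higher and 4 lower, against 47.9% and 36.8%. Each of these 3 comparisons shares arrays with the others. The median difference over all genes was 0.14 in the first comparison and -0.13 in the second, and it moved to -0.004 and -0.28 under quantile normalization and to 0.65 and -0.43 when each array was centred on its median. Directions that depend on this choice are named with the gene.

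Among the PIWI proteins, Piwil1 encodes MIWI, which binds pachytene piRNAs and is needed in spermatids. On euploid arrays it stood at 11.42, 11.55 and 12.60 in pre-mid pachytene, at 14.91 and 14.32 in mid-late pachytene and at 10.52, 11.31 and 11.86 in spermatids. Both mid-late arrays lay above all others, and the pre-mid and spermatid arrays overlapped. The difference was 2.76 ± 0.37 (SE), or 6.78-fold, up to mid-late pachytene (limma adjusted p = 1.9e-06) and -3.39 ± 0.38 (SE) from there to spermatids (adjusted p = 2.7e-07). Relative to the median of all genes these were 2.62 and -3.26. Spermatids against pre-mid pachytene gave -0.63 ± 0.34 (SE, adjusted p = 0.0908), which became -1.46 with an adjusted p of 0.00107 under quantile normalization. It also passed without spermatid replicate 3 (-0.94, adjusted p = 0.0182) or without pre-mid replicate 1 (-0.84, adjusted p = 0.0423).

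Piwil2 encodes MILI, the PIWI protein that acts from fetal germ cells onward. Its euploid values were 13.90, 14.36 and 13.97 in pre-mid pachytene, 13.54 and 13.05 in mid-late pachytene and 10.68, 11.12 and 11.43 in spermatids. The 3 stages did not overlap and fell in that order. The first step was -0.78 ± 0.21 (SE, limma adjusted p = 0.00279) and the second -2.22 ± 0.21 (SE, adjusted p = 4.9e-08). The first step did not pass when arrays were centred on their medians (-0.27, adjusted p = 0.248) or without mid-late replicate 2 (-0.54, adjusted p = 0.0727). Piwil1 and Piwil2 thus moved in opposite directions up to mid-late pachytene as deposited and were both lower in spermatids.

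Mov10l1 encodes the helicase that binds piRNA precursors, and from pre-mid pachytene to spermatids its level fell furthest among the members. It stood at 13.57, 13.74 and 13.33 in pre-mid pachytene, at 10.09 and 10.28 in mid-late pachytene and at 8.31, 8.38 and 8.43 in spermatids. The fractions were separated by far more than their spread. The first difference was -3.37 ± 0.15 (SE), a mid-late level 0.0970 times the pre-mid level (limma adjusted p = 3.8e-13), and the second was -1.81 ± 0.15 (SE, adjusted p = 7.8e-09). Spermatids against pre-mid pachytene gave -5.18 ± 0.13 (SE). Mov10l1 and Piwil1, the members with a MYB hexamer in the printed windows, therefore moved in opposite directions at the first step.

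Asz1 encodes a protein of the outer mitochondrial membrane that anchors the processing complex. Its values were 10.04, 10.41 and 9.71 in pre-mid pachytene, 8.34 and 8.68 in mid-late pachytene and 8.93, 8.72 and 8.80 in spermatids. It was lower in mid-late than in pre-mid pachytene by -1.54 ± 0.41 (SE, limma adjusted p = 0.0022). The further difference to spermatids was 0.30 ± 0.41 (SE, adjusted p = 0.538), although the spermatid arrays all lay above the mid-late ones. Both SEs include the scatter of Asz1 near background in liver, an SD of 0.95 in euploid and 0.69 in trisomic males.

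Pnldc1 encodes the exonuclease that trims the ends of piRNA intermediates. It stood at 8.84, 8.38 and 8.75 in pre-mid pachytene, at 9.62 and 9.61 in mid-late pachytene and at 8.16, 8.67 and 8.25 in spermatids. The mid-late arrays were the highest and the other fractions overlapped. It was higher by 0.96 ± 0.33 (SE) up to mid-late pachytene (limma adjusted p = 0.0134) and then lower by -1.26 ± 0.33 (SE, adjusted p = 0.00276). The first call was lost under quantile normalization (0.71, adjusted p = 0.0674) and without mid-late replicate 1 (adjusted p = 0.0542) or replicate 2 (adjusted p = 0.0511).

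Of the nuage proteins, Tdrd1 encodes a scaffold with several Tudor domains that binds MILI. It stood at 3.75, 3.42 and 2.86 in pre-mid pachytene, close to the background range, at 8.32 and 8.98 in mid-late pachytene and at 7.07, 7.32 and 7.25 in spermatids. The difference between the first 2 fractions was 5.31 ± 0.35 (SE) on the log2 scale, and because the lower value is near background no fold is given. From mid-late pachytene to spermatids it was lower by -1.43 ± 0.35 (SE, limma adjusted p = 0.00162), with no overlap of arrays.

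Tdrd9, an RNA helicase with a Tudor domain, stood at 12.72, 12.76 and 13.03 in pre-mid pachytene, at 12.97 and 12.89 in mid-late pachytene and at 10.71, 11.11 and 11.00 in spermatids. The pachytene fractions overlapped and the spermatids lay below. The first difference was 0.09 ± 0.21 (SE, limma adjusted p = 0.704) as deposited. It was -0.66 (adjusted p = 0.00905) under quantile normalization and 0.60 (adjusted p = 0.0241) with arrays centred on their medians, so it has no settled direction. The fall to spermatids was -1.99 ± 0.21 (SE, adjusted p = 1.8e-07).

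Ddx4, the germ cell helicase known as VASA, and Mael, a nuage protein needed for transposon silencing, had their lowest germ cell values at 14.78 and 14.90. Ddx4 stood at 14.78, 15.005 and 15.08, then at 15.29 and 15.25, then at 15.14, 15.17 and 15.12 in the 3 fractions. The difference up to mid-late pachytene was 0.32 ± 0.18 (SE, limma adjusted p = 0.116) and that to spermatids -0.13 ± 0.18 (SE, adjusted p = 0.56). The sign of the first turned under quantile normalization (-0.21, adjusted p = 0.289), and it passed at 0.82 (adjusted p = 0.000748) with arrays centred on their medians. Mael stood at 14.90, 15.36 and 14.93 in pre-mid pachytene, at 15.99 and 16.01 in mid-late pachytene and at 15.98, 15.89 and 15.93 in spermatids. It was higher by 0.94 ± 0.15 (SE, adjusted p = 1.9e-05) up to mid-late pachytene, and its difference to spermatids was -0.07 ± 0.15 (SE, adjusted p = 0.715), or -0.37 with an adjusted p of 0.0388 with arrays centred on their medians. The highest value on any array was 16.75, and whether differences are compressed at levels this high was not tested.

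**Figure D2:**
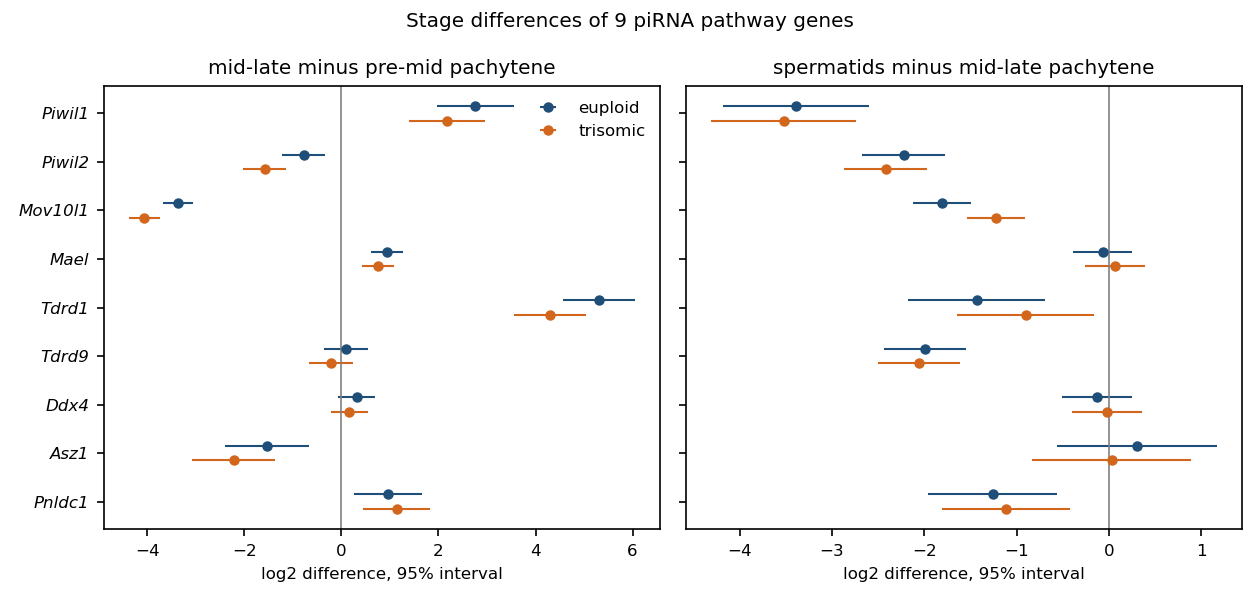
Log2 difference (horizontal axis) of each gene between mid-late and pre-mid pachytene (left) and between spermatids and mid-late pachytene (right), with 95% intervals from limma, euploid in blue and trisomic in orange. Mov10l1 is lowest on the left at -3.37 in euploid cells and Piwil1 lowest on the right at -3.39.

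In trisomic males the genes called in the first 2 comparisons were those called in euploid males. From pre-mid to mid-late pachytene 3 of the 8 members other than Tdrd1 were higher and 3 lower, and from mid-late pachytene to spermatids 6 of 9 were lower. The background was 40.9% higher and 37.7% lower in the first comparison and 28.6% higher and 34.2% lower in the second. In spermatids against pre-mid pachytene the calls were not the same: 1 of 8 was higher and 5 lower, against 45.9% and 38.9% of all genes, with Piwil1 lower by -1.34 ± 0.34 (SE, limma adjusted p = 0.00115). Its difference between the genotypes in this comparison, -0.72 ± 0.47 (SE), did not pass (adjusted p = 0.502). Piwil1 differed by 2.18 ± 0.37 and -3.52 ± 0.37 (SE), Mov10l1 by -4.06 ± 0.15 and -1.22 ± 0.15 (SE). For Tdrd1 the second difference was -0.90 ± 0.35 (SE, limma adjusted p = 0.0334). Whether a stage difference depends on genotype was tested directly, and 0 of 9 members passed for any pair of stages. Over all genes 0.14%, 0.0716% and 0.194% passed for mid-late against pre-mid, spermatids against mid-late and spermatids against pre-mid. These shares rest on 12, 6 and 17 genes, and leaving out 1 array moved the counts to between 5 and 307, 0 and 79, and 4 and 172. The members at an unadjusted p under 0.05 numbered 2, 1 and 1 of 9 in these tests, where 12.6%, 3.09% and 15.2% of all genes had one. For Piwil2 the genotype difference was 0.55 in pre-mid pachytene and -0.45 in spermatids, a change of -1.0003 ± 0.27 (SE, adjusted p = 0.105). For Mov10l1 it was 0.39 in pre-mid and -0.30 in mid-late pachytene, a change of -0.69 ± 0.21 (SE, adjusted p = 0.183).

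Other genes of piRNA biogenesis were taken from a list of 23, of which 18 were on the array. From pre-mid to mid-late pachytene in euploid males, 9 of 17 tested were higher and 5 lower, beside 42.3% and 36.3% of all genes, and from there to spermatids 3 were higher and 10 lower, beside 29.7% and 34.8%, a median difference of -1.09 beside -0.13 over all genes. Henmt1, the methyltransferase that protects the 3′ end of piRNAs, went from 2.63 to 9.80 and passed the filter, and so entered this count, only through the later stage. Tdrd5, a Tudor protein that acts in processing of pachytene precursors, was higher by 3.65 ± 0.37 (SE, limma adjusted p = 4e-08) and then lower by -4.26 ± 0.37 (SE, adjusted p = 1.5e-08). Tex19.1, a germ cell gene linked to transposon control, was lower by -5.31 ± 0.38 (SE, adjusted p = 3e-10). It is among the 10 lower in spermatids, where it averaged 3.49, only through its mid-late values. Tex15, a meiotic gene that also acts in piRNA-guided silencing, was lower by -4.63 ± 0.40 (SE) and then higher by 3.45 ± 0.40 (SE). The kinesin gene Kif17 was higher in spermatids by 4.43 ± 0.53 (SE, adjusted p = 7.5e-07), a difference between 2.997 and 5.86 when 1 array was left out. Its 2 euploid mid-late arrays stood at 9.27 and 6.40, where the median level of the round spermatid markers was 11.03 and 9.05, whose part was not tested. Pld6, the mitochondrial nuclease of the pathway, was lower there by -2.94 ± 0.58 (SE, adjusted p = 0.000199).

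A second list held 6 transcriptional and chromatin partners, of which 4 were on the array and 3 tested at the first step. Mybl1 stood at 4.18 in pre-mid pachytene, at 5.99 in mid-late pachytene and at 3.69 in spermatids on average in euploid males. Its 2 mid-late arrays, at 5.08 and 6.90, differed widely but lay above all pre-mid arrays, the highest at 4.44. It was higher by 1.81 ± 0.34 (SE, limma adjusted p = 8e-05) and then lower by -2.30 ± 0.34 (SE, adjusted p = 9.1e-06). In spermatids it lay under the minimum mean of 4 and was tested only through its mid-late arrays, so the second call supports nothing. The first difference was 2.72 without euploid mid-late replicate 1 and 0.90 without replicate 2, and the second -3.21 and -1.39. Tcfl5, a factor of pachytene spermatocytes, was higher by 0.98 ± 0.18 (SE, adjusted p = 6.6e-05), a call lost under quantile normalization (0.37, adjusted p = 0.0597). Dnmt3l, a partner of DNA methyltransferases in fetal germ cells, was higher in spermatids by 4.80 ± 0.38 (SE, adjusted p = 5e-09), between 3.67 and 5.94 when 1 array was left out, with the same 2 mid-late arrays at 5.49 and 3.22. Of this list 2 were higher and 0 lower at the first step, beside 42.3% and 36.3% of all genes. All 4 were tested at the second step, where 1 was higher and 1, Mybl1, lower, beside 29.7% and 34.8%. Counts this small are no result about the list.

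**Figure D3:**
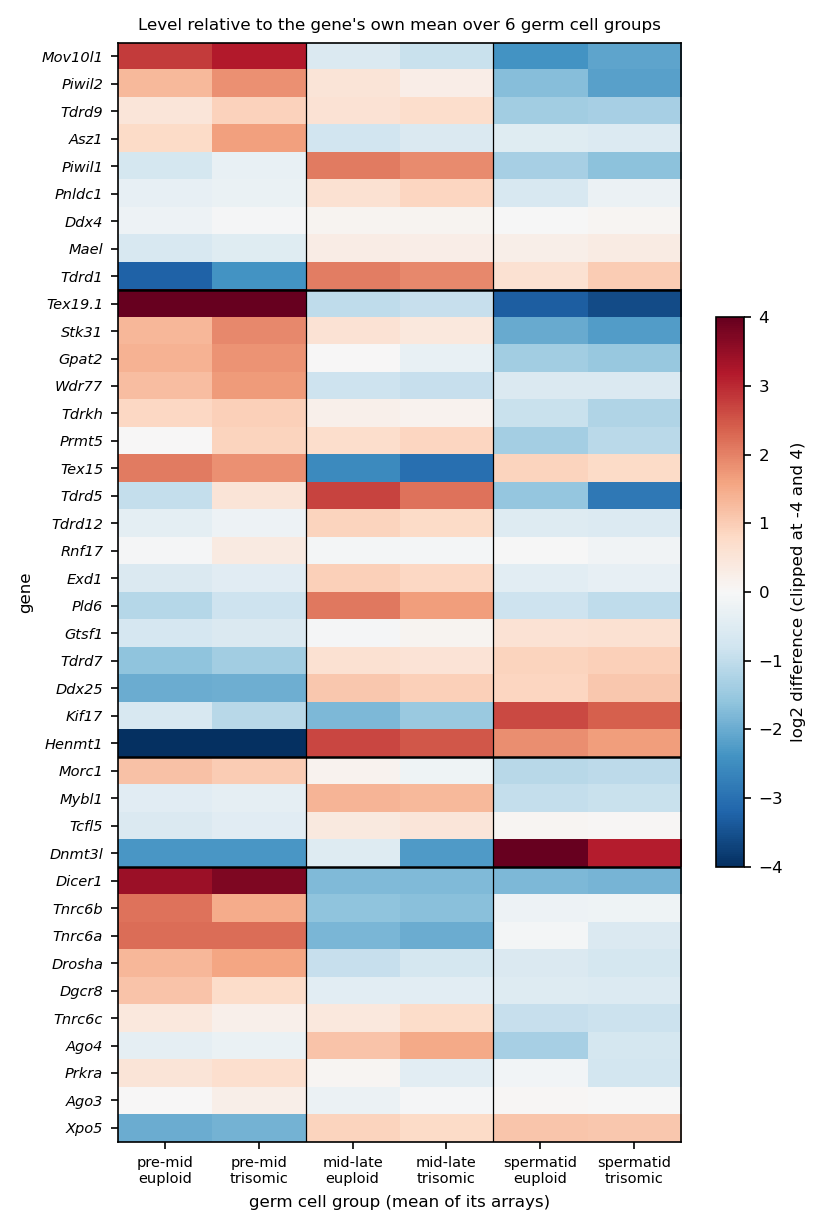
Mean log2 level of 40 pathway genes in the 6 germ cell groups, each relative to that gene's mean over the groups, drawn between -4 and 4. Black lines separate, from the top, the members, other piRNA genes, transcriptional partners and microRNA machinery. The trisomic column beside each euploid column is mostly close in colour. Among the exceptions are Tdrd5, 1.46 higher in trisomic pre-mid pachytene and lower in trisomic spermatids (6.06 against 7.36). Dnmt3l is another, with means of 4.36 in euploid and 2.62 in trisomic mid-late pachytene and 9.16 and 8.02 in spermatids. Columns of different stages differ, as for Mov10l1 at -3.37 up to mid-late pachytene.

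The second question was whether the extra part of chromosome 17 goes with different levels of these genes. In none of the 3 germ cell fractions did a member pass between trisomic and euploid males, and in liver 0 members reached the level needed for a test. In pre-mid-pachytene cells 8 members were tested by limma and 0 passed, where 5.88% of 8384 genes were higher and 4.46% lower, 10.3% in all. Without trisomic replicate 1 or 2 or euploid replicate 1 or 3 the count over all genes went from 867 to 250, 267, 570 and 394. An unadjusted p under 0.05 was reached by 4 of 8 members and by 25.8% of all genes. All 8 had a higher mean in trisomic cells, while 61.7% of all genes tested did. Their median difference was 0.40 beside 0.11 over all genes, and 0.20 with a median of 0.05 over all genes under quantile normalization. Relative to the median of all genes, Pnldc1 was below 0 as deposited (-0.05), and Mael and Ddx4 were so too under quantile normalization (-0.02 and -0.03). The trisomic arrays all lay above the euploid ones for 3 of 8, Piwil2, Mov10l1 and Asz1, as for 20.8% of all genes, and all below for 0 of 8, as for 9.46%.

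The members nearest the threshold in pre-mid pachytene were Mov10l1 and Piwil2. Mov10l1 stood at 13.57, 13.74 and 13.33 in euploid and at 13.98, 13.97 and 13.88 in trisomic cells, a difference of 0.39 ± 0.13 (SE, limma adjusted p = 0.0712). Piwil2 stood at 13.90, 14.36 and 13.97 in euploid and at 14.74, 14.71 and 14.43 in trisomic cells, a difference of 0.55 ± 0.19 (SE, adjusted p = 0.0762). The groups do not overlap for either gene. Both passed without euploid replicate 2 (0.49 with an adjusted p of 0.0327 and 0.69 with an adjusted p of 0.035) and with arrays centred on their medians (adjusted p = 0.0354 and 0.0364). Mov10l1 also passed with no filter on low values (adjusted p = 0.0353).

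Asz1 had the largest tested difference, 0.87 ± 0.37 (SE, limma adjusted p = 0.141), from 10.04, 10.41 and 9.71 in euploid to 11.16, 10.97 and 10.62 in trisomic cells. Tdrd9 stood at 13.45, 13.47 and 12.90 in trisomic cells, with the last inside the euploid range, and differed by 0.43 ± 0.19 (SE, adjusted p = 0.158). It passed without trisomic replicate 3 (0.62, adjusted p = 0.0441). Piwil1 differed by 0.40 ± 0.33 (SE, adjusted p = 0.481), from overlapping values of 12.50, 12.66 and 11.62 in trisomic cells. Mael differed by 0.17 ± 0.14 (SE), Ddx4 by 0.16 ± 0.16 (SE) and Pnldc1 by 0.06 ± 0.30 (SE). Tdrd1, at 4.43, 4.96 and 3.24 in trisomic cells, did not reach the minimum mean of 4 over both groups and was not tested.

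Markers of other cells differed between the same arrays. All 9 round spermatid markers on the array had a lower mean in trisomic pre-mid-pachytene cells, 5 of 9 passed, and their median difference was -1.46. Over all genes tested 61.7% had a higher mean and 4.46% were called lower. Their summed level ran from 13.57 to 14.38 on euploid and from 12.93 to 13.73 on trisomic arrays, and 0 of the 9 averaged below 3. The median level of the round spermatid markers was 9.60, 10.90 and 9.83 on the euploid and 8.60, 8.88 and 9.56 on the trisomic arrays, highest on euploid replicate 2. Without that array Mov10l1 and Piwil2 passed the threshold. It also held the highest euploid values of both genes, 13.74 and 14.36, and the highest euploid early meiotic median, 12.59. The elongating spermatid markers did not share this difference, with overlapping medians of 13.83, 14.23 and 14.02 on euploid and 13.71, 14.29 and 14.58 on trisomic arrays. Their mean summed level was 17.78 and 17.82. Pachytene markers also overlapped, at 11.73, 11.98 and 12.08 on euploid and 12.24, 12.17 and 11.69 on trisomic arrays. Early meiotic markers gave medians of 12.12, 12.59 and 11.75 on euploid and 12.63, 12.32 and 12.46 on trisomic arrays, and 0 of 8 passed. Sertoli cell markers had medians of 4.71, 5.06 and 5.12 on euploid and 4.34, 4.30 and 4.66 on trisomic arrays, which do not overlap, with summed levels from 13.46 to 13.99 and from 13.33 to 13.76, and 0 of 5 tested passed. Spermatogonial markers had medians from 3.11 to 4.04 on euploid and from 2.73 to 3.03 on trisomic arrays, also apart, with summed levels from 9.19 to 10.27 and from 8.96 to 9.73, 3 and 4 of 8 genes below 3, and 0 of 2 tested passing. Over all genes 10.3% passed in either direction, so the counts of 0 passing are no result about these lists. The part of all these markers in the members' differences was not tested.

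Of the other biogenesis genes, 3 of 16 tested were higher in trisomic pre-mid-pachytene cells and 0 lower, beside 5.88% and 4.46% of all genes, with a median of 0.23 beside 0.11. Tdrd5 stood at 7.81, 8.10 and 7.98 in euploid and at 9.89, 9.82 and 8.57 in trisomic cells, a difference of 1.46 ± 0.33 (SE, limma adjusted p = 0.0121). Without trisomic replicate 1 or 2 its adjusted p was 0.0748 or 0.0669. Stk31, a kinase-like Tudor protein, stood at 13.65, 14.07 and 13.50 in euploid and at 14.49, 14.40 and 14.14 in trisomic cells, a difference of 0.60 ± 0.18 (SE, adjusted p = 0.0367), which became 0.39 (adjusted p = 0.151) under quantile normalization. Its call was also lost without euploid replicate 1 or 3 or trisomic replicate 1 or 2 (adjusted p from 0.103 to 0.155). Prmt5, the arginine methyltransferase that modifies PIWI proteins, stood at 9.54, 10.29 and 9.31 and at 10.64, 10.89 and 10.26, with overlap, and differed by 0.88 ± 0.25 (SE, adjusted p = 0.0323). Its call was lost without the same replicates (adjusted p from 0.1 to 0.154) and with no filter on low values (adjusted p = 0.0564). In a fit of the pre-mid-pachytene arrays alone none of these 3 passed (adjusted p from 0.113 to 0.157), where 4 of all genes did in place of 867. The transcriptional partners had 0 of 3 passing.

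In mid-late-pachytene cells 0 of 9 members passed, beside 0.965% of 8085 genes, and 0 of 9 had an unadjusted p under 0.05, beside 7.66%. The 78 genes called became 209 without euploid replicate 1, 172 without euploid replicate 2 and 47 without trisomic replicate 2. The median difference was -0.02 beside 0.00 over all genes, and 4 of 9 means were higher in trisomic cells beside 50.6% of all genes. The largest were -0.30 ± 0.16 (SE, limma adjusted p = 0.804) for Mov10l1, at 10.09 and 10.28 in euploid and 10.00 and 9.77 in trisomic cells, and 0.24 ± 0.36 (SE) for Pnldc1. With 2 arrays a group, trisomic arrays lay all above the euploid ones for Tdrd9 and Pnldc1 and all below for Mov10l1, as they did for 17.7% and 15.3% of all genes.

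In spermatids 0 of 9 members passed, beside 0.821% of 8283 genes, and Piwil2 and Mov10l1, 2 of 9, had an unadjusted p under 0.05, beside 8.69%. Piwil2 stood at 10.68, 11.12 and 11.43 in euploid and at 10.61, 10.86 and 10.40 in trisomic spermatids, a difference of -0.45 ± 0.19 (SE, limma adjusted p = 0.454). Mov10l1 stood at 8.31, 8.38 and 8.43 and at 8.62, 8.83 and 8.53, a difference of 0.29 ± 0.13 (SE, adjusted p = 0.537). Trisomic arrays lay all above the euploid ones for Mov10l1, Mael and Tdrd1, as for 7.45% of all genes, and all below for 0 of 9, as for 5.57%. Mael differed by only 0.12 ± 0.14 (SE), from 15.98, 15.89 and 15.93 to 16.04, 16.04 and 16.06, and Tdrd1 by 0.40 ± 0.32 (SE), from 7.07, 7.32 and 7.25 to 7.62, 7.84 and 7.37. The members' median was 0.11 beside 0.01 over all genes, and 6 of 9 means were higher beside 52.7%.

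**Figure D4:**
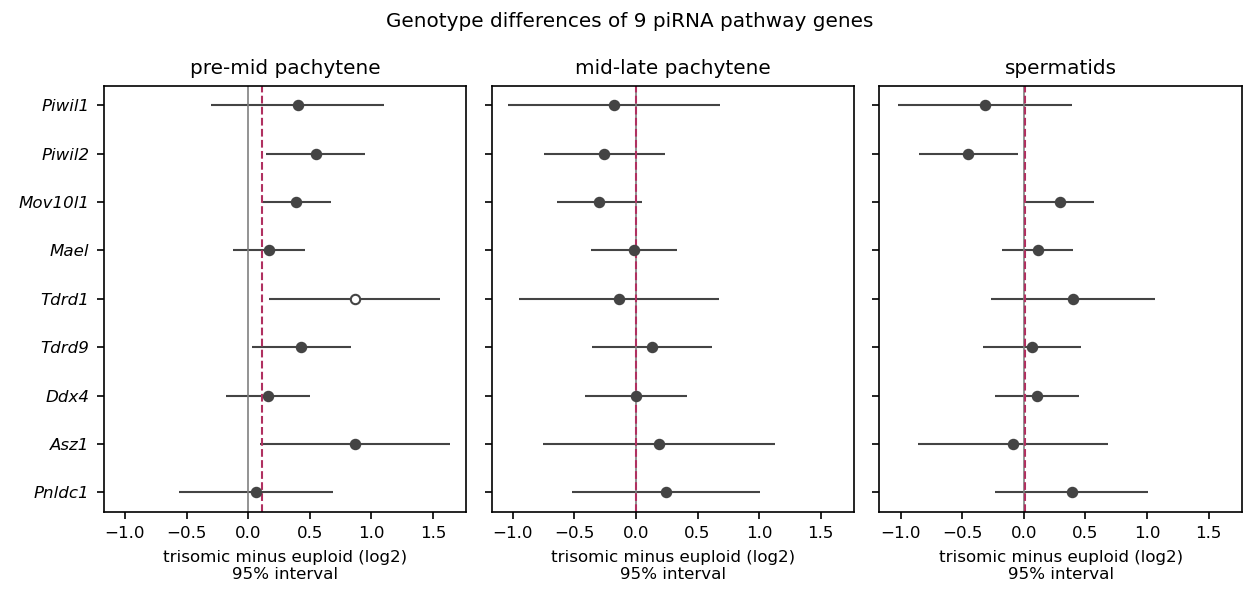
Log2 difference, trisomic minus euploid (horizontal axis), of each gene in the 3 germ cell fractions, with 95% intervals from limma. The dashed line is the median of all genes tested and the open circle marks Tdrd1 in pre-mid pachytene, which was not tested. The pre-mid values all lie above 0, with a median of 0.40 over the 8 tested members, and those of the other fractions lie on both sides of 0.

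Pnldc1 is the only member on chromosome 17, in the part that is present in an extra copy, where 3 copies against 2 would correspond to 0.58 on the log2 scale. It stood at 8.84, 8.38 and 8.75 in euploid and at 8.89, 8.93 and 8.34 in trisomic pre-mid-pachytene cells, which overlap. In mid-late-pachytene cells it stood at 9.62 and 9.61 against 9.92 and 9.80, and in spermatids at 8.16, 8.67 and 8.25 against 8.72, 8.93 and 8.58. The differences and their 95% intervals were 0.06 (-0.56 to 0.69), 0.24 (-0.52 to 1.01) and 0.39 (-0.24 to 1.01), with limma adjusted p of 0.928, 0.999 and 0.878. Each interval holds both 0 and 0.58. In liver it was not tested, with values of 2.35, 3.04 and 2.53 in euploid and 2.56, 2.93 and 4.096 in trisomic males, where 1 trisomic array stood well above the others. A test of whether a genotype difference in a germ cell fraction departs from that in liver passed for 6.29%, 1.81% and 1.92% of all genes in the order of the fractions, but for members, which lay near background in liver, it measures no liver expression and nothing is read from it.

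Genes in the first 30 Mb of chromosome 17, placed by RefSeq on GRCm38.p6, gave a median difference of 0.24 in pre-mid pachytene (154 genes), 0.30 in mid-late pachytene (144 genes), 0.36 in spermatids (148 genes) and 0.67 in liver (144 genes). Pnldc1 lay below the median in pre-mid pachytene, with 48 of 154 genes below it. Where the extra part ends was not given in the labels, and 30 Mb is a chosen limit. In mid-late pachytene its side of the median turned with that limit, with 60 of 144 genes below it at 30 Mb and 109 of 206 at 35 Mb, and in spermatids 83 of 148 were below it. Its nearest tested neighbours differed among themselves. Mas1, a G protein-coupled receptor gene, was higher in trisomic spermatids by 2.96 ± 0.28 (SE, adjusted p = 1.1e-05) and in pre-mid pachytene by 1.24 ± 0.28 (SE, adjusted p = 0.0121), a call that without trisomic replicate 2 had an adjusted p of 0.0717. Fitted on the arrays of each cell type alone, these had an adjusted p of 0.0817 and 0.132. Mrpl18, which encodes a mitochondrial ribosomal protein, differed by 0.28, 0.27 and 0.51, and Tcp1, which encodes a chaperonin subunit, by 0.32, 0.03 and 0.08 in the 3 fractions, none of them passing. Map3k4, a kinase gene, differed by -0.13 in mid-late pachytene and -0.05 in spermatids, where neither passed. In liver the nearest neighbours Mas1 (0.25, adjusted p = 0.690) and Tcp1 (-0.015, adjusted p = 0.968) did not pass. There Igf2r, a receptor gene, was higher by 1.14 ± 0.20 (SE, adjusted p = 0.00132), or with an adjusted p of 0.0959 in a fit of the liver arrays alone. In pre-mid pachytene Igf2r differed by 0.009 (adjusted p = 0.988). Map3k4 was higher in liver by 0.71 ± 0.15 (SE, adjusted p = 0.00619), with an adjusted p of 0.129 in that fit. Mrpl18 was higher in liver by 0.57 ± 0.17 (SE, adjusted p = 0.0384), a call lost without euploid replicate 1, 2 or 3 or trisomic replicate 1 or 2 (adjusted p from 0.0514 to 0.108).

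For each member the 2 genes with the most similar pattern were found among 6871 genes with a mean of at least 6 over the 16 germ cell arrays. These arrays form 6 groups, so the correlation mostly ranks the group means and is given without a test. Mov10l1 was closest to Nup93 (r = 0.998) and Qdpr (r = 0.998), Piwil2 to Srsf1 (r = 0.994) and Nae1 (r = 0.992), and Tdrd1 to Frmd8 (r = 0.990) and Enox1 (r = 0.990). Mael was closest to Dnajc5g (r = 0.988) and Tcp1 (r = 0.987), Tdrd9 to Snx17 (r = 0.985) and Rps19bp1 (r = 0.985), and Piwil1 to Bnip5 (r = 0.983) and Lyrm9 (r = 0.982). Asz1 was closest to Snrpb2 (r = 0.980) and Radil (r = 0.9753), Pnldc1 to Preb (r = 0.955) and Slc15a4 (r = 0.951), and Ddx4, whose level varied least, to Spg7 (r = 0.946) and Ik (r = 0.909). The patterns of the members differ among themselves: over the 36 pairs of members the median r across these arrays was 0.25.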

How the data were processed

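The authors deposited log2 intensities per probe set, made with GCRMA per the submitters' processing notes. The version, and which arrays were normalized together, are not given in the sources used here. The table held 16539 probe sets, of which 759 carried no gene name and were left out. Each of the other 15780 genes had 1 probe set. Group means of all 8 groups over 22 arrays were fitted with limma 3.58.1 in R 4.3.3. Each gene thus had 1 spread over all groups, liver included, also where its liver values were near background. A gene was tested where its mean over the arrays compared reached 4. The spread was moderated over the genes tested in that comparison, p-values were adjusted by Benjamini-Hochberg over them, and 0.05 was the threshold. Intervals are at 95%. The code was tested on simulated data. All members on the array were described, with every other listed gene that passed between genotypes and otherwise the largest stage differences of each list, the genes most like each member and neighbours of Pnldc1. The members, lists and tests were chosen with earlier results of these data known. Same-numbered arrays of the 2 genotypes did not deviate together throughout, with correlations from -0.13 to 0.36. The highest were 0.36 for replicate 2 of spermatids and 0.24 for replicate 2 of liver. In mid-late pachytene, with 2 arrays a group, the check gives only 1 value, -0.03. Replicate numbers were not used as pairs. Whether same-numbered arrays of different cell types within a genotype deviate together was not checked. Alternatives were other filters, scalings, fits and leaving out each array. Figures were drawn with matplotlib 3.10.9.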

Additional observations from a re-analysis of the deposited data

Results flagged for a closer look

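Among the pathway genes and neighbours of Pnldc1 named here, 4 that are no members had genotype differences that differed between cell types in a limma test of the difference itself. Over all genes 0.194% passed that test for spermatids against pre-mid pachytene, 6.29% for pre-mid pachytene against liver and 1.92% for spermatids against liver. The genotype difference of Tdrd5 was lower in spermatids than in pre-mid-pachytene cells by -2.76 ± 0.47 (SE, adjusted p = 0.025). Its trisomic minus euploid difference was positive at 1.46 in pre-mid pachytene, and in spermatids its values were 6.75, 7.07 and 8.27 in euploid and 6.07, 6.30 and 5.81 in trisomic males. This call was lost without trisomic spermatid replicate 1 or 3 or trisomic pre-mid replicate 1 or 2 (adjusted p from 0.0533 to 0.0757) and in a fit of the compared cell types alone (adjusted p = 0.117).

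The genotype difference of Prmt5 was higher in pre-mid-pachytene cells than in liver by 1.25 ± 0.35 (SE, adjusted p = 0.0422). Its trisomic minus euploid difference was 0.88 in the former and -0.37 in the latter. The call held without euploid liver replicate 3, euploid pre-mid replicate 2 or trisomic pre-mid replicate 3, and was lost without any of the other arrays of these groups (adjusted p from 0.0546 to 0.112), with no filter on low values (adjusted p = 0.057) and in a fit of pre-mid-pachytene and liver arrays alone (adjusted p = 0.0859). For Igf2r, a neighbour of Pnldc1, the difference was smaller in pre-mid pachytene than in liver by -1.13 ± 0.29 (SE, adjusted p = 0.0276). That call was lost without euploid liver replicate 2, trisomic liver replicate 2 or 3, euploid pre-mid replicate 3 or trisomic pre-mid replicate 1 or 2 (adjusted p from 0.0523 to 0.0806) and in a fit of the same kind (adjusted p = 0.0829). For Mas1, another neighbour, it was larger in spermatids than in liver by 2.71 ± 0.40 (SE, adjusted p = 0.0014). Groups of 2 or 3 arrays were too small for a test of single outlying arrays.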

How the results depend on the processing

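Over 56 results of single members, 665 of 703 settings kept direction and side of the threshold, 6 lost the call, 13 gained one and 19 turned the sign. Of the 19 called results, 226 of 232 settings kept the call and 0 turned the sign. The cause was not tested for any change. The number of members called between genotypes in pre-mid pachytene was 1 with no filter on low values and 2 with arrays centred on their medians, in place of 0, and 0 to 2 when 1 array was left out (2 without euploid pre-mid replicate 2, 1 without trisomic pre-mid replicate 3). With a minimum mean of 6, 5 members in place of 9 were called in mid-late pachytene minus liver and 5 in place of 9 in spermatids minus liver, since fewer were tested. The genotype difference against liver in pre-mid pachytene called 1 member with arrays centred on their medians and 0 to 1 when 1 array was left out (1 without euploid liver replicate 1), a count with no meaning for members, whose liver values are near background. The members' median genotype difference in pre-mid pachytene was 0.20 under quantile normalization in place of 0.40. The median of the chromosome 17 genes in mid-late pachytene was 0.23 with the limit at 35 Mb in place of 0.30. The median correlation of member pairs was 0.96 over the 8 group means, liver included, in place of 0.25.

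Signs turned under quantile normalization for Tdrd9 (-0.66), Ddx4 (-0.21) and Gtsf1 (-0.10) in mid-late minus pre-mid pachytene, for Ddx4 in spermatids minus pre-mid pachytene (-0.40), and for Ddx4 between genotypes in mid-late pachytene (-0.0259, and -0.0229 with arrays centred on their medians). Leaving out 1 array turned signs of genotype differences that had not passed: in mid-late pachytene Piwil1 ran from -0.47 to 0.12, Mael from -0.0750 to 0.0414, Tdrd1 from -0.46 to 0.19 and Ddx4 from -0.0258 to 0.0341. In spermatids Piwil1 ran from -0.67 to 0.0035 and Tdrd9 from -0.17 to 0.23, and in pre-mid pachytene Pnldc1 ran from -0.0728 to 0.25. Against liver, Pnldc1 ran from -0.63 to 0.14 in mid-late pachytene and from -0.48 to 0.28 in spermatids, with the same limit.

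With the replicate number as a replicate block, 0 members were called between genotypes in pre-mid pachytene, as without it. The correlations in the processing section varied in sign and do not settle whether replicate numbers mark pairs. The block ended the calls of Tdrd5 in the stage test (adjusted p = 0.0553) and of Mrpl18 in liver (adjusted p = 0.0506), changed no member's call, and left 3 genes in place of 12 and 3 in place of 17 in the tests of genotype by stage for mid-late and for spermatids against pre-mid pachytene. A fit of the compared cell types alone called, over all genes, 19 in place of 781 in liver, 4 in place of 867 in pre-mid pachytene, 0 in place of 78 in mid-late pachytene and 1 in place of 68 in spermatids. It called 2, 0 and 4 in place of 12, 6 and 17 by stage and 232, 30 and 80 in place of 595, 173 and 189 against liver. It ended the calls of Tdrd5, Stk31, Prmt5 and Mas1 between genotypes in germ cells and of Igf2r, Map3k4 and Mrpl18 in liver (adjusted p from 0.0817 to 0.157). Leaving out 1 array gave between 250 and 1088 genes in pre-mid pachytene, 47 and 209 in mid-late pachytene, 5 and 307, 0 and 79, and 4 and 172 by stage, and 261 and 793, 71 and 225, and 122 and 253 against liver. The highest counts by stage came without euploid mid-late replicate 1 (307 and 79) and without trisomic pre-mid replicate 3 (172), the lowest without trisomic mid-late replicate 2 (5 and 0) and without trisomic spermatid replicate 3 (4). No filter gave 110 genes in spermatids, 86, 37 and 71 by stage and 281 and 340 against liver, and a minimum mean of 6 gave 9 in mid-late pachytene, 22 in spermatids, 1 by stage from mid-late pachytene to spermatids and 98 and 84 against liver. By stage against pre-mid pachytene, quantile normalization gave 20 and 50, centring on medians 28 in spermatids, and limma with trend and robust settings 4 in mid-late pachytene. Centring on medians gave 1097 in pre-mid pachytene against liver and moved the share of higher calls from 60.4% to 40.3% in liver, from 56.9% to 71.7% in pre-mid pachytene, from 46.1% to 35.4% in spermatids minus mid-late pachytene, and from 51.8% to 80.4% and from 36.0% to 56.6% in pre-mid pachytene and spermatids against liver. In the stage test for mid-late pachytene it moved from 66.7% to 42.9%, and quantile normalization moved that for spermatids against pre-mid pachytene from 41.2% to 64.0%.

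Treating probe sets of 1 gene separately was not run, since each gene had 1 probe set. The small number of arrays limits all intervals, in mid-late pachytene most of all, and values near the background range understate differences.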

Other observations

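The microRNA and small interfering RNA machinery, which shares the Argonaute fold with the piRNA pathway but processes double-stranded precursors, was compared in euploid males. From pre-mid to mid-late pachytene 2 of 10 genes tested were higher and 5 lower, beside 42.3% and 36.3% of all genes, so these counts are no result about the list. Dicer1, the nuclease that cuts microRNA precursors, is among the 5 only through its pre-mid values of 8.27, 8.11 and 8.11. On the mid-late arrays it stood at 3.07 and 2.90, at the background range, and no difference is given. Tnrc6b is also among the 5 only through its pre-mid values, since it stood at 3.64 and 3.52 on the mid-late arrays, under the minimum mean of 4. Drosha and Dgcr8, which make up the nuclear processing complex, were lower by -2.24 ± 0.20 and -1.57 ± 0.16 (SE), each with a limma adjusted p under the threshold. Tnrc6a, a silencing partner of Argonaute proteins, was lower by -4.05 ± 0.25 (SE) and then higher in spermatids by 1.74 ± 0.25 (SE). Xpo5, the exporter of precursors, was higher by 2.88 ± 0.17 (SE), and Ago4 was higher by 1.51 ± 0.47 (SE, adjusted p = 0.00718) and then lower by -2.48 ± 0.47 (SE). From mid-late pachytene to spermatids 2 of 9 were higher and 2 lower, beside 29.7% and 34.8%. Tnrc6b is among the higher genes only through its spermatid values of 6.09, 4.81 and 4.11. Between genotypes 0 of 10 passed in pre-mid pachytene, 0 of 8 in mid-late pachytene and 0 of 9 in spermatids. Over all genes 10.3%, 0.965% and 0.821% passed, so these counts are no result about the list.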
